A study of Mus musculus with 5 samples.

Results

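Excitatory neurons of the cortex load glutamate into synaptic vesicles, and some of them load zinc into the same vesicles. The 7 genes described here encode carriers for these steps and for the uptake of glutamate and glutamine by neurons. The vesicular glutamate carriers are *Slc17a7* (VGLUT1), *Slc17a6* (VGLUT2), and *Slc17a8* (VGLUT3), and the vesicular zinc carrier is *Slc30a3* (ZnT3). The others are the neuronal glutamate carrier *Slc1a1* (EAAT3) and the glutamine carriers *Slc38a1* (SNAT1) and *Slc38a2* (SNAT2). The rule that chose the 7 genes gives their names and uses no signal, but the genes were chosen with earlier results of these data known. They are 7 of 19938 genes with a named probe set, which is the group of probes that measures a gene. A gene was kept where it reached the median of an array in at least 1 array, and the 7 genes are among the 12632 genes that did so.

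The arrays came from retrogradely labeled neurons in the primary somatosensory cortex (S1) of ICR mice at postnatal day (PD) 24. The 5 groups were association neurons, which project from S1 to the primary motor cortex (M1), in L6b, L5, and L2/3, and callosal neurons, which project to the contralateral S1 (cS1), in L5 and L2/3. In all groups the fluorescent tracer Green RetroBeads was injected at PD21, into M1 for association neurons and into cS1 for callosal neurons, and the mice had been electroporated before birth with a plasmid that expresses tdTomato in L2/3 neurons. About 1000 cells per group were collected by laser microdissection, and amplified cDNA of each group was hybridized to 1 array. The labels name no deletion and no drug in any group. Each group was measured once, so there is no replicate error and no test, and the number of arrays limits the precision of every value. A difference was called where it reached 2-fold, which is a rule of size. The called genes are set beside the percentage of the 12632 genes that passed the same rule. In such bulk samples, fewer cells of a type and less RNA per cell cannot be told apart.

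The vesicular glutamate carriers use the proton gradient of the vacuolar proton pump to fill vesicles. In the rodent cortex VGLUT1 is known as the main carrier of pyramidal neurons, VGLUT2 is known from thalamic and other subcortical inputs, and VGLUT3 is known from neurons that also use another transmitter. ZnT3 is brought to vesicles by the adaptor complex AP-3, and the glutamine carriers return to neurons the glutamine that astrocytes make from glutamate with glutamine synthetase.

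The labels were set against marker genes. In all statements on signals, the level is the deposited log2 signal minus the median of its array, so that 0 is the median probe set. The L6b markers *Cplx3* (5.22) and *Ccn2* (4.63) had their highest levels in association L6b, against -0.37 to 0.39 for *Cplx3* and 0.81 to 1.07 for *Ccn2* in the other 4 arrays. The L2/3 markers *Lamp5* and *Rasgrf2* were highest in the L2/3 arrays, and the L5 marker *Fezf2* was highest in the L5 arrays. Against its label, the L5 marker *Etv1* was highest in association L2/3 (2.75), and *Pcp4* was as high in association L6b (6.16) as in the L5 arrays (5.99 in association and 6.14 in callosal neurons). Of the 6 named markers of cortical glutamatergic neurons, 6 lay above the array median in each array. Some glial and GABAergic markers, such as *Slc1a2* and *Sst*, also lay above the array median in every array. Others did not, such as the astrocyte marker *Gfap* (-0.55 to -0.31). The sums of these marker lists are given beside the results that they accompany. *Xist* was at 1.47 to 2.55 in the association arrays and at -1.48 and -0.88 in the callosal arrays, and the Y-linked gene *Eif2s3y* was at -2.61 to -2.46 in the association arrays and at 2.45 and 2.90 in the callosal arrays. The projection and the sex of the mice therefore cannot be told apart.

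The 7 genes fell into 2 kinds of profile. *Slc17a6*, *Slc30a3*, and *Slc38a1* spanned at least 2-fold over the 5 arrays (1.63, 1.24, and 1.11 on the log2 scale), as did 29.5% of all genes. The other 4 genes spanned 0.63 or less. The median range was 0.63 for the 7 genes and 0.53 for all genes. The 3 wider profiles differed from each other: *Slc30a3* was low in association L6b, *Slc38a1* was high in association L5, and *Slc17a6* was high in callosal L2/3.

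**Figure D1:**
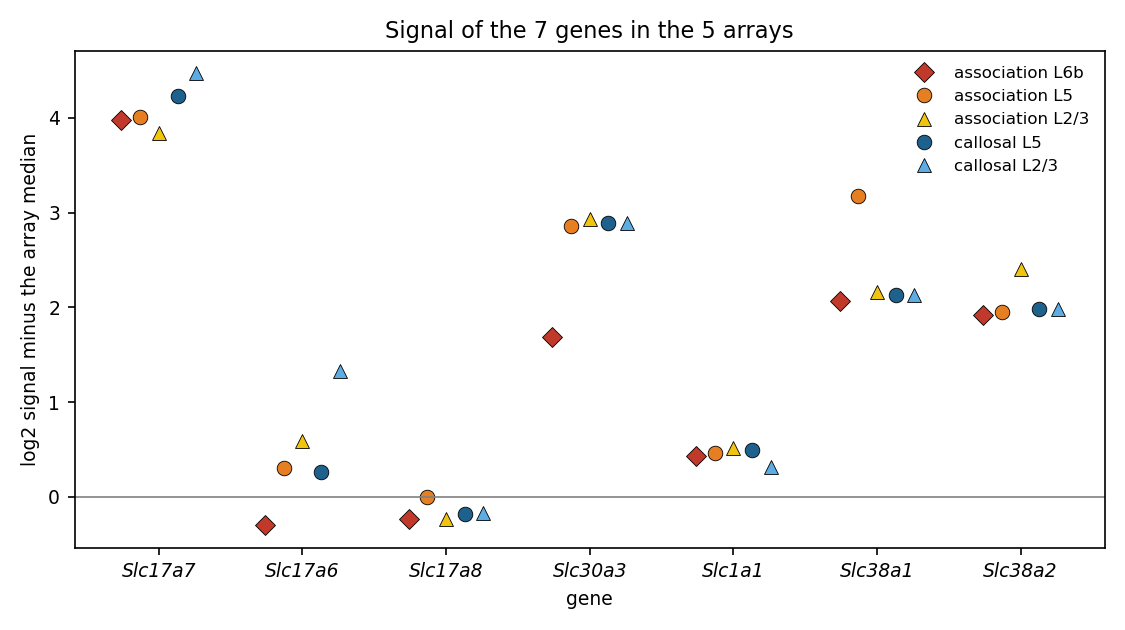
Level of the 7 genes (log2 signal minus the array median, vertical axis) in the 5 arrays, 1 point per array, with color and shape for the group. *Slc30a3* was at 1.69 in association L6b and at 2.86 to 2.93 in the other arrays, and the points of *Slc17a8* and *Slc1a1* lie close together.

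*Slc17a7*, the carrier known for cortical pyramidal neurons, lay well above the array median in every array. Its probe set (10552857) had levels of 3.98 (L6b), 4.01 (L5), and 3.84 (L2/3) in association neurons and 4.23 (L5) and 4.47 (L2/3) in callosal neurons. The lowest and the highest level were both in L2/3, and they belonged to neurons of different projection. Its range of 0.63 was reached or passed by 44.6% of the genes.

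Between projections, *Slc17a7* was lower in association than in callosal neurons in both layers. The difference was -0.63 on the log2 scale in L2/3, which is a 1.55-fold lower signal in association neurons, and 6.73% of the genes had a difference as low or lower. In L5 the difference was -0.22, and 22.5% of the genes were as low or lower. Neither reached 2-fold. L6b and L5 association neurons differed by -0.03, and their deposited values were equal at 9.78.

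*Slc17a6*, the carrier known from subcortical inputs, had the widest range of the 7 genes. The levels of its probe set (10553501) were -0.30 (L6b), 0.30 (L5), and 0.59 (L2/3) in association neurons and 0.26 (L5) and 1.33 (L2/3) in callosal neurons. It thus lay below the array median in association L6b and above it in the other arrays, and callosal L2/3 stood highest. Its mean level was 0.44, and 33.6% of the genes kept had a mean level as low or lower. No detection call or background signal is given, so whether its lower levels lay above background cannot be read. The span of 1.63, or 3.10-fold, was reached by 14.4% of the genes.

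Among callosal neurons, *Slc17a6* was 2.10-fold lower in L5 than in L2/3, with a difference of -1.07. It was the only 1 of the 7 genes past 2-fold in this comparison, in which 4.52% of all genes were at least 2-fold lower and 4.08% at least 2-fold higher. Among association neurons the same layers differed by -0.29. The difference was -0.60 between L6b and association L5 and -0.89 between L6b and association L2/3, neither of which reached 2-fold. Between projections, association neurons differed from callosal neurons by -0.74 in L2/3, where 5.48% of the genes were as low or lower, and by 0.04 in L5.

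The changes of *Slc17a6* and *Slc17a7* were therefore unequal between layers and differed less between the L2/3 arrays. From L2/3 to L5 of callosal neurons, the difference of *Slc17a6* was below that of *Slc17a7* by 0.83 on the log2 scale (-1.07 for *Slc17a6* and -0.24 for *Slc17a7*). Between association and callosal L2/3 the values were -0.74 for *Slc17a6* and -0.63 for *Slc17a7*. Among association neurons, the difference of *Slc17a6* minus that of *Slc17a7* was -1.03 for L6b against L2/3. It was -0.57 for L6b against L5 and -0.46 for L5 against L2/3. None of these comparisons has a replicate.

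*Slc17a8*, which encodes the carrier of neurons that release glutamate beside another transmitter, did not exceed the median of any array. The levels of its probe set (10371796) were -0.23 (L6b), 0.00 (L5), and -0.23 (L2/3) in association neurons and -0.18 (L5) and -0.17 (L2/3) in callosal neurons. It was kept among the genes because its deposited value in association L5 was exactly the array median of 5.77. Its range of 0.23 was reached by 77.0% of the genes, and it is the 1 gene of the 7 that a median taken over named genes, or quantile normalization, would leave out. The files give no detection call or background signal, so whether this probe set lay above background cannot be read from them.

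*Slc30a3*, which encodes the carrier that fills vesicles with zinc, was lower in association L6b than in every other array. The levels of its probe set (10529068) were 1.69 (L6b), 2.86 (L5), and 2.93 (L2/3) in association neurons and 2.89 (L5) and 2.89 (L2/3) in callosal neurons. The other 4 arrays lay within 0.07 of each other, and the deposited value was 7.49 in association L6b, against 8.64 in association L2/3 and 8.63 in each of the remaining arrays. Association L6b was 2.36-fold lower than association L2/3 (-1.24) and 2.25-fold lower than association L5 (-1.17). Against the mean of the other 4 arrays it was lower by 1.20, and 4.56% of the genes were as low or lower on this measure.

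The counts for L6b held only 1 or 2 of the 7 genes. Against association L2/3, 1 of the 7 genes (*Slc30a3*) was at least 2-fold lower in L6b and 0 were higher, where 10.6% of all genes were lower and 2.83% higher. Against association L5, 2 of the 7 genes (*Slc30a3* and *Slc38a1*) were lower in L6b and 0 were higher, where 7.16% of all genes were lower and 3.5% higher. Set against each of the other 4 arrays, only *Slc30a3* of the 7 genes was 2-fold or more lower in L6b, as were 2.82% of all genes. None (0 of 7) was 2-fold or more higher there, as were 1.26% of all genes. With quantile normalization in place of the subtraction of medians, *Slc30a3* was lower in L6b by 1.07 than in association L5 and by 0.99 than in association L2/3, and the second of these no longer reached 2-fold. *Slc38a1* was then at -0.98 between L6b and association L5, and it was at -0.21 with the mean of its probe sets and at 0.69 on its dimmer probe set.

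*Slc30a3* and *Slc17a7* thus changed unequally in L6b. Like *Slc30a3*, *Slc17a6* had its lowest level there, but it did not reach 2-fold against association L5 (-0.60) or L2/3 (-0.89). The levels of *Slc38a2* and of the brighter probe set of *Slc38a1* were also lowest in L6b, where their deposited values equaled those of other arrays. *Slc17a7* differed by -0.03 between L6b and association L5 and by 0.14 between L6b and association L2/3. The difference of *Slc30a3* was below that of *Slc17a7* by 1.14 against L5 and by 1.38 against L2/3. Against the mean of the other 4 arrays, the difference in L6b was -1.20 for *Slc30a3*, -0.92 for *Slc17a6*, and -0.16 for *Slc17a7*.

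The sums of several marker lists also differed between L6b and the other arrays. The 6 markers of glutamatergic neurons had a summed linear signal, in units of the array median, of 34.3 in association L6b, against 62.5 to 93.3 elsewhere. These markers did not move together. Between L6b and the mean of the other 4 arrays, *Camk2a* differed by -2.71, *Nrgn* by -1.88, *Tbr1* by -0.67, *Neurod2* by -0.02, *Emx1* by 0.02, and *Neurod6* by 0.56. The 7 GABAergic markers summed to 15.5 in association L6b and to 37.9 to 62.6 in the other arrays, and *Pvalb* was at -1.38 in L6b. These markers differed in degree. Against the mean of the other 4 arrays, L6b differed by -5.32 for *Pvalb*, -1.78 for *Sst*, -1.03 for *Gad1*, and -0.79 for *Gad2*. The difference was -0.72 for *Vip*, -0.30 for *Slc32a1*, and -0.10 for *Lhx6*. The 5 named oligodendrocyte markers summed to 41.2 in association L6b, 38.6 in association L5, 17.7 in callosal L5, and 9.04 and 8.48 in association and callosal L2/3. The near sums of L6b and association L5 held markers of opposite direction. Between these arrays *Mog* differed by 2.84, *Mbp* by 0.91, *Cldn11* by 0.64, *Mobp* by -0.54, and *Mag* by -2.49. The sums of the other lists spanned 27.2 to 34.7 for 6 astrocyte markers, 8.43 to 9.43 for 6 microglia markers, and 7.06 to 9.0 for 5 endothelial and mural markers. The part of these cells in the low *Slc30a3* signal was not tested.

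**Figure D2:**
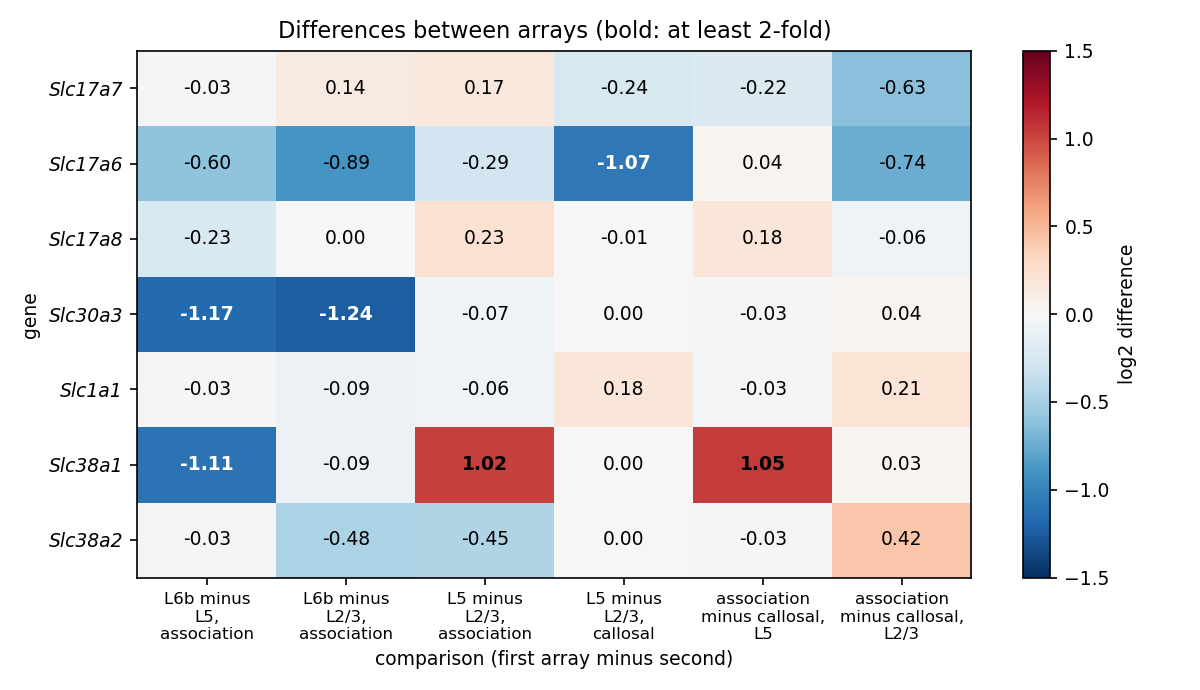
Log2 differences of the 7 genes (rows) in 6 comparisons of 2 arrays (columns, first array minus second), with blue for lower and red for higher in the first array and the value in each cell. Values of at least 2-fold are bold, and they are -1.17 and -1.24 for *Slc30a3*, -1.07 for *Slc17a6*, and -1.11, 1.02, and 1.05 for *Slc38a1*.

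*Slc1a1*, which encodes the glutamate carrier of the neuronal plasma membrane, was even over the arrays. The levels of its probe set (10462313) were 0.43 (L6b), 0.46 (L5), and 0.52 (L2/3) in association neurons and 0.49 (L5) and 0.31 (L2/3) in callosal neurons. The deposited value was 6.23 in 4 arrays and 6.05 in callosal L2/3, so that the differences among the other arrays come only from the array medians. The range of 0.21 was reached by 79.1% of the genes.

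*Slc38a2*, which encodes a sodium-coupled glutamine carrier, was highest in association L2/3. The levels of its probe set (10431894) were 1.92 (L6b), 1.95 (L5), and 2.40 (L2/3) in association neurons and 1.98 (L5) and 1.98 (L2/3) in callosal neurons. Association L2/3 was higher than callosal L2/3 by 0.42, and 4 arrays shared the deposited value of 7.72. The range of 0.48 was reached by 54.0% of the genes, and no comparison of *Slc38a2* reached 2-fold.

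*Slc38a1*, which encodes the related carrier SNAT1, stood apart in association L5. The levels of its brighter probe set (10431874) were 2.07 (L6b), 3.18 (L5), and 2.16 (L2/3) in association neurons and 2.13 (L5) and 2.13 (L2/3) in callosal neurons. In L5, association neurons were 2.07-fold higher than callosal neurons (1.05), and within association neurons L5 was 2.03-fold higher than L2/3 (1.02). L6b was 2.16-fold lower than association L5 (-1.11). Between the callosal layers it differed by 0.00.

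*Slc38a1* was the only 1 of the 7 genes past 2-fold between projections. In L5 it was at least 2-fold higher in association neurons, as were 3.49% of all genes, and 0 of the 7 genes were lower, as were 4.97%. In L2/3, 0 of the 7 genes passed 2-fold in either direction, where 5.07% of all genes were higher and 3.48% lower. Between association L5 and L2/3, *Slc38a1* was again the only gene past 2-fold, with 3.48% of all genes higher and 7.36% lower in L5. It was at least 2-fold higher in association L5 than in each other array, as were 1.31% of all genes. The neighboring gene *Slc38a2*, which is next to it in the RefSeq annotation of GRCm38.p6, had differences of -0.03 and -0.45 where *Slc38a1* had 1.05 and 1.02.

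A dimmer probe set of *Slc38a1* (10431872) gave the opposite direction. Its levels were -0.15 (L6b), -0.84 (L5), and -0.06 (L2/3) in association neurons and 0.60 (L5) and -0.09 (L2/3) in callosal neurons. Association L5 was thus its lowest array and callosal L5 its highest. Association neurons were lower than callosal neurons in L5 by 1.44 on this probe set and differed by 0.03 in L2/3. With the mean of both probe sets, the difference between projections in L5 was -0.20, so the direction of *Slc38a1* rested on the choice of probe set. Of the 866 genes with more than 1 probe set, 127 passed 2-fold between association and callosal L5, and the next probe set had the opposite sign in 29 of them and was past 2-fold in the opposite direction in 9.

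**Figure D3:**
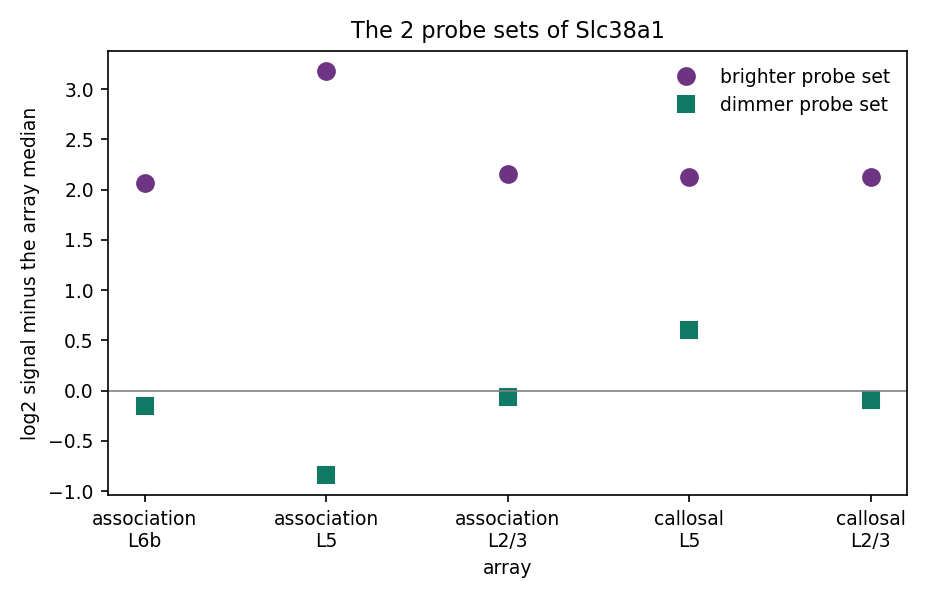
Level of the 2 probe sets of *Slc38a1* (log2 signal minus the array median, vertical axis) in each array (horizontal axis), with circles for the brighter and squares for the dimmer probe set. In association L5 the brighter probe set has its highest level (3.18) and the dimmer probe set its lowest (-0.84).

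Identical deposited values bear on several of these profiles. In 60.6% of all 35556 probe sets at least 2 of the 5 arrays had the same deposited value, and in 96.9% of these the most frequent value was the median of the 5. *Slc1a1*, *Slc38a1* (brighter probe set), and *Slc38a2* had 4 of 5 arrays at the same value, as did 9.11% of the genes kept. *Slc30a3* had 3 arrays at the same value, *Slc17a7* and *Slc17a8* had 2, and the 5 values of *Slc17a6* were all different. The sources used here do not say how such ties arose.

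Over the 7 genes, the medians were 0.03 between association and callosal L2/3 and -0.03 between association and callosal L5, as they were over all genes. These values are the differences that the subtraction of array medians gives to probe sets with equal deposited values, so nothing is read from their equality. For L6b against L5 the median was -0.23 over the 7 genes and -0.03 over all genes, and for L6b against L2/3 it was -0.09 over both. Against the mean of the other 4 arrays the median for L6b was -0.16 over the 7 genes and -0.06 over all genes. The values of -0.03, -0.09, and -0.06 are also those that the subtraction gives to equal deposited values, so nothing is read from them.

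The genes whose profiles were nearest to the 2 widest profiles were sought among 11768 genes, by the root mean square distance over the 5 arrays after each gene was centered on its mean. For *Slc17a6* these were *Hspb3* (0.08), *Mib1* (0.08), and *Tbl1x* (0.11). *Hspb3* had levels of 1.01 (L6b), 1.63 (L5), and 1.79 (L2/3) in association neurons and 1.66 (L5) and 2.52 (L2/3) in callosal neurons. For *Slc30a3* they were *Gps1* (0.02), *Usp34* (0.04), and *Zfp266* (0.05). *Gps1* had a level of 0.73 in association L6b, against 1.85 to 1.92 elsewhere. With so many genes and 5 arrays, near profiles are a description only.

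Enzymes and mitochondrial carriers of glutamate and glutamine metabolism had a median range of 1.11, against 0.53 over all genes. Of 11 genes listed, 9 had a named probe set. Glutamine synthetase (*Glul*), the astrocyte enzyme that makes glutamine, was the most even of them, at 5.83 (L6b), 5.88 (L5), and 5.92 (L2/3) in association neurons and 5.76 (L5) and 5.97 (L2/3) in callosal neurons. *Got1*, a cytosolic aspartate aminotransferase, was lowest in association L5 (1.58) and at 3.38 to 3.90 in the other arrays. *Slc25a11*, the mitochondrial oxoglutarate carrier, was highest in association L5 (2.93), against 0.56 (L6b) and 1.72 (L2/3) in the other association arrays and 1.05 (L5) and 1.69 (L2/3) in callosal neurons. *Glud1*, a mitochondrial glutamate dehydrogenase, was highest in association L6b (3.76) and lowest in callosal L2/3 (2.34). Against association L5, 2 of these 9 genes were higher by 2-fold or more in L6b and 1 was lower (3.5% and 7.16% of all genes). Against association L2/3, 0 were higher and 2 were lower (2.83% and 10.6% of all genes). The 2 higher genes were enzymes, and the lower genes in both comparisons were mitochondrial carriers. The median difference of the 9 genes between L6b and the mean of the other 4 arrays was -0.01.

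Of 14 other carriers of glutamate and glutamine, 9 were kept, with a median range of 0.44 against 0.53 over all genes. Of these, 3 spanned 2-fold, as did 29.5% of all genes. *Slc38a9*, a lysosomal amino acid carrier, was highest in callosal L5 (1.63) and at 0.24 to 0.79 in the other arrays. *Slc1a3*, an astrocyte glutamate carrier, was highest in association L2/3 (2.06) and at 1.02 to 1.29 in the other arrays. *Slc38a3*, a glutamine carrier known from astrocytes, was also highest in association L2/3 (0.83) and at -0.18 to 0.18 in the other arrays. *Slc1a3* is also among the astrocyte markers. In L6b 0 of these carriers passed 2-fold against association L5 or L2/3 in either direction, and their median difference from the other 4 arrays was -0.06.

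Among zinc carriers and buffers other than *Slc30a3*, the widest ranges belonged to *Mt1*, *Slc30a5*, and *Slc30a4*. *Mt1*, a metallothionein that binds zinc, was highest in association L6b (4.25), against 2.01 (L5) and 2.81 (L2/3) in the other association arrays and 3.07 in each callosal array. The other metallothioneins listed did not share this profile. *Mt2* was highest in association L5 (3.2) and at 2.11 in L6b, and *Mt3* was at 3.68 in L6b and at 3.24 to 3.99 elsewhere. *Slc30a4*, which carries zinc into intracellular compartments, was lowest in association L6b (0.17), against 1.45 (L5) and 1.58 (L2/3) in the other association arrays and 1.48 (L5) and 2.08 (L2/3) in callosal neurons. *Slc30a5*, a zinc carrier of the early secretory pathway, was highest in association L5 (2.25) and lowest in callosal L5 (0.23). Of the 22 genes kept of 25 listed, 2 were higher by 2-fold or more and 3 lower in L6b than in association L2/3 (2.83% and 10.6% of all genes), and 2 were higher and 2 lower than in association L5 (3.5% and 7.16% of all genes). The median difference between L6b and the other 4 arrays was -0.03. *Slc30a4* was the only 1 of the 22 genes with an L6b signal 2-fold or more below that of each other array. Of all genes, 2.82% met this rule. An L6b signal 2-fold or more above each other array was found in 2 of the 22 genes and in 1.26% of all genes. *Mt1* was among these 2.

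The genes that acidify vesicles and the subunits of AP-3, which sorts ZnT3, had a median difference of -0.15 between L6b and the other 4 arrays over 22 genes. *Atp6v0d1*, a subunit of the membrane part of the proton pump, was lowest in association L6b (2.84) and highest in association L5 (5.37), against 4.18 in each L2/3 array and 3.82 in callosal L5. *Atp6v1f*, a subunit of its cytosolic part, was higher in L5 than in L2/3 in both projections, by 1.98 in association and 1.92 in callosal neurons. *Ap3s1*, a small subunit of AP-3, was at 5.45 (L6b), 5.82 (L5), and 3.99 (L2/3) in association neurons and at 3.70 (L5) and 3.46 (L2/3) in callosal neurons. In L6b 1 gene was at least 2-fold higher and 2 were lower than in association L2/3, where 2.83% and 10.6% of all genes were, and 0 were higher and 2 were lower than in association L5, where 3.5% and 7.16% of all genes were.

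Other vesicular carriers and genes of GABA metabolism had a median of -0.33 between L6b and the other 4 arrays over 8 genes. It was -0.14 with no filter on low values and -0.89 with a filter at the 75th percentile. *Gad1* and *Gad2*, the enzymes that make GABA, were at 0.45 and 0.25 in association L6b, with *Gad1* highest in association L5 (2.00) and *Gad2* highest in association L2/3 (2.18). *Abat*, which breaks down GABA, was at 2.02 in association L6b and at 2.74 to 3.43 in the other arrays. *Gad1* and *Gad2* are also among the GABAergic markers. In L6b 0 genes were higher by 2-fold or more and 3 were lower than in association L5, and the same counts held against association L2/3. The shares of all genes were 3.5% higher and 7.16% lower against L5, and 2.83% higher and 10.6% lower against L2/3.

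**Figure D4:**
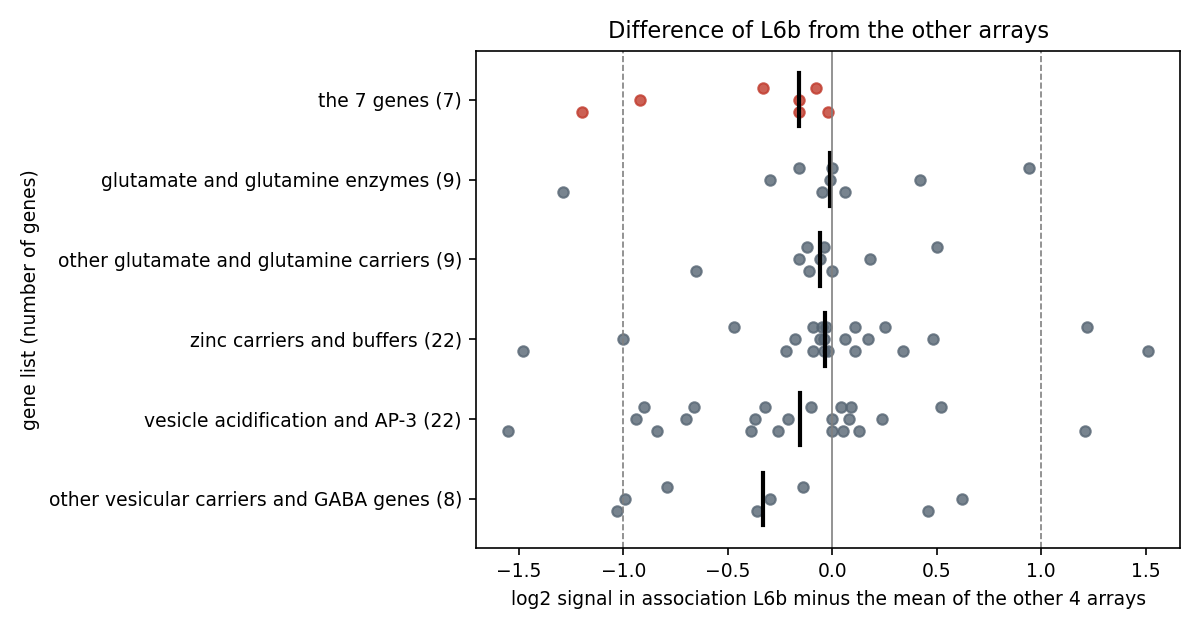
Log2 difference between association L6b and the mean of the other 4 arrays (horizontal axis) for each gene kept, 1 point per gene, in the 7 genes and in 5 lists of related genes (rows, number of genes in parentheses). Black bars mark the medians, which run from -0.33 to -0.01. The row of enzymes also holds mitochondrial carriers. Dashed lines mark 2-fold, which only *Slc30a3* of the 7 genes passed, at -1.20. Genes of the lists also passed it, such as *Slc30a4* at -1.48 and *Mt1* at 1.51.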

How the data were processed

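The authors deposited a table of log2 signals per probe set for 5 GeneChip Mouse Gene 1.0 ST arrays, 1 per group. Affymetrix Expression Console is listed in the submitters' processing notes. Not given in the sources used here are its version, the method of summarisation, and the genome build. The methods name global normalization and centering, and the values are not centered per gene. That the scale is log2 was read from the range of 1.11 to 14.2.

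Of 35556 probe sets, 21789 had 1 gene symbol and 1621 had several, which were not used. The 7 genes were matched by Entrez identifier to RefSeq (GRCm38.p6). The median of each array (5.71 to 5.80) was subtracted, the probe set with the highest mean was taken for each gene, and genes at or above the median of 1 array or more were kept. Correlations between arrays were 0.918 to 0.938. Array columns not mapped to a group numbered 0.

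Differences of at least 2-fold were called by size, without a test. Genes named are the 7 genes, the 3 genes with the widest range in each of 5 lists of related genes, the 3 genes nearest to the 2 widest profiles, and markers. *Glul*, *Mt2*, and *Mt3* were named after their values were seen. Some listed genes and markers are not reported here, and *Pc* and *Ctgf* were found as *Pcx* and *Ccn2*. The genes and lists were chosen with earlier results of these data known. Alternatives were other scalings, filters, folds, and probe set rules, and the dimmer probe set of *Slc38a1*, which was chosen after its values were seen. The steps were tested on simulated data with 200 changed genes. Python 3.11.15, numpy 2.4.6, pandas 2.3.3, and matplotlib 3.10.9 were used.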

Additional observations from a re-analysis of the deposited data

Results flagged for a closer look

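In 4 cases the differences of a gene had opposite signs in the 2 layers or the 2 projections. The signs were opposite both in the deposited values and after the array medians were subtracted. Each case rests on 1 array per group, and the difference between these values was not tested. The share of all genes that met this rule is not given, so nothing is read from the count. None of the values reached 2-fold, and some were very small (0.04 and -0.01). Between association and callosal neurons, *Slc17a6* differed by -0.74 in L2/3 and by 0.04 in L5, and *Slc17a8* differed by -0.06 in L2/3 and by 0.18 in L5. Between L5 and L2/3, *Slc17a7* differed by 0.17 in association and by -0.24 in callosal neurons, and *Slc17a8* differed by 0.23 in association and by -0.01 in callosal neurons. Pairs whose signs were opposite only after the subtraction, with equal deposited values on 1 side, were left out, such as *Slc38a2* (0.42 between association and callosal L2/3 and -0.03 in L5).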

How the results depend on the processing

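Counts of the 7 genes past 2-fold did not change when values were taken as deposited, when the 75th percentile or the median of named genes was subtracted, or with no filter or a filter at the 75th percentile of each array, which kept 5 of the 7 genes. Quantile normalization left 0 of the 7 genes lower in L6b than in association L2/3, 1 lower than in association L5, 0 lower in L6b than in the other 4 arrays each, and 0 higher in association L5 than in the other 4 each. With a fold of 1.5, 2 genes were lower in association than in callosal L2/3, and 1 was higher in callosal L2/3 than in each other array. With this fold, 2 genes were lower in L6b than in association L2/3 and 3 were lower than in association L5. With a fold of 4, these comparisons and all others had 0 genes past the fold. The mean of all probe sets gave *Slc38a1* a difference of -0.20 between association and callosal L5. It left 0 genes higher in association than in callosal L5, 0 higher in association L5 than in L2/3 or in each other array, and 1 lower in L6b than in association L5. The dimmer probe set of *Slc38a1* gave -1.44 between association and callosal L5, -0.78 between association L5 and L2/3, and 0.69 between L6b and association L5. The cause of these changes was not tested. The difference between L6b and the mean of the other arrays moved by at most 0.26 when any of the 4 was left out. Of the 7 genes, 6 kept their direction, and *Slc1a1* (-0.02 with all arrays) was at -0.06 to 0.01. No paired analysis was possible because each group has 1 array. The data hold no background signal, so no lower limit of detection can be given for *Slc17a6* or *Slc17a8*.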
